A study of Mus musculus with 14 samples.

Results

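The comparison described here set cortical cultures treated with bicuculline against cortical cultures treated with NMP peptides plus APV, 3 libraries against 3, out of 14 libraries in the series. The 6 libraries were chosen by their labels alone, with no measured value. All 14 came from primary cortical neuron cultures of wild-type C57BL/6 mice, kept in Neurobasal medium with B-27, treated for 1 h at day 12 in vitro and sequenced as ribosome-depleted total RNA. The first group received 20 µM bicuculline, and the second received purified NMP peptides at 4% by volume together with 100 µM APV. NMP is the neuronal membrane proteasome, a proteasome at the surface of neurons that releases peptides to the outside. The other groups were 1% DMSO (2 libraries, replicates 2 and 3), NMP peptides at 4% without APV (3 libraries) and NMP peptides at 4% after digestion by proteinase K, called PK-cleaved NMP peptides (3 libraries). These 8 libraries entered the shared estimate of spread, the filter on low values and the principal components, and are otherwise used below to place single genes. The compared groups differed in 3 agents at once (bicuculline, the peptides and APV), and no library with APV alone or with bicuculline plus APV was analysed here, so their parts in any difference cannot be told apart. A DMSO content is stated only for the DMSO group, so the solvent of the compared groups is not known here. Replicates are described as biological without saying what was replicated, and the p-values measure the spread between these libraries.

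Bicuculline blocks GABA-A receptors, the chloride channels behind fast inhibition, and releases cultured networks into bursts of firing. APV is a competitive antagonist of the NMDA receptor, a glutamate-gated channel through which calcium enters dendrites during synaptic activity. Calcium entry through NMDA receptors and L-type calcium channels activates CaM kinases and the Ras to ERK cascade. CREB, bound to cAMP response elements, and SRF with its ternary complex partners, bound to CArG boxes, then switch on immediate-early genes within minutes. Some of these encode transcription factors (Fos, Egr, Nr4a, Npas4), and others act directly at synapses (Arc), in signalling (Rgs, Dusp) or as secreted messengers (Bdnf).

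Promoter sequences are shown for some of the genes called higher with bicuculline, with matches to such elements marked as a description. Whether these elements had a part in the differences was not tested. They are RefSeq sequences of build GRCm38.p6, read 5′ to 3′ on the gene's strand and ending at the base before the annotated start. In the 250 bases before the start of Npas4 (chr19:4989972-4990221, minus strand) and of Fos (chr12:85473640-85473889, plus strand), capitals mark the core of the cAMP response element, TGACG on either strand. In Dusp5 (chr19:53528895-53529144, plus strand) capitals mark a pair of adjacent CArG boxes, 82 and 72 bases before the start. They also mark a core element 55 bases before the start. The core alone is common, in 27.4% of promoters of all tested genes.
Npas4: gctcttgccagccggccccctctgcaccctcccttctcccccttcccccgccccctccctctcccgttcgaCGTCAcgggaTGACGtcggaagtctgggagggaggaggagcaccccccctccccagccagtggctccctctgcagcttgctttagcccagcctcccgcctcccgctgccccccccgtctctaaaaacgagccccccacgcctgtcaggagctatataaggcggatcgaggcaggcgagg
Fos: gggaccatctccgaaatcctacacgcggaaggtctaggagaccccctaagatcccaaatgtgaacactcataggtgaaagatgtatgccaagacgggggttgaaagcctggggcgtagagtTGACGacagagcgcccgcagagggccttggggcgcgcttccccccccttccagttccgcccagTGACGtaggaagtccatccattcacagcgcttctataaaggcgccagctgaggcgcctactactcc
Dusp5: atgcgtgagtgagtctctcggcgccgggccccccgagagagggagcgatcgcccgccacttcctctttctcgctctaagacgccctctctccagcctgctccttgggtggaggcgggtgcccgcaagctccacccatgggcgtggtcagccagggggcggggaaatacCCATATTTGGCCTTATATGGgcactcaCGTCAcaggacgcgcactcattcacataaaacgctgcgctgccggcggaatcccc

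Of 60 called genes chosen by the naming rule, 47 had a promoter entry once genes on the chromosome of Egr1 were left out. Of these, 5 held the full 8-base cAMP response element TGACGTCA in that stretch. All 5 were higher with bicuculline, as were 71.5% of all called genes, so their shared direction says little about the element. The 40-base windows of these 5 follow, with the element in capitals. It lay 166 bases before the start of Btg2 (chr1:134079298-134079337, minus strand), 143 before Dusp1 (chr17:26508592-26508631, minus strand), 26 before Arl4d (chr11:101665499-101665538, plus strand), 51 before Errfi1 (chr4:150855003-150855042, plus strand) and 68 before Scg2 (chr1:79440071-79440110, minus strand).
Btg2: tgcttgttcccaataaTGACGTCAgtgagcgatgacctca
Dusp1: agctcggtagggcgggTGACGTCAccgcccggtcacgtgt
Arl4d: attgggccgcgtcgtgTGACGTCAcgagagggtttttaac
Errfi1: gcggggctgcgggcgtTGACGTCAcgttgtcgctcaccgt
Scg2: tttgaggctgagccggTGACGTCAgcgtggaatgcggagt

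Activity-regulated genes made up the top of the comparison. The values are quantile-normalised log2 signals, so a difference of 1 is a 2-fold difference, and a gene was called at an adjusted p under 0.05 (limma, Benjamini-Hochberg over 10877 tested genes). Of these, 362 were called (3.33%), 259 higher with bicuculline (2.38%) and 103 lower (0.947%). At an unadjusted p under 0.05 there were 2029 of the 10877, the background for the list counts at that threshold below. Among called genes 75 were at least 2-fold higher, led by Npas4 at 48.6-fold, and 3 were at least 2-fold lower: Gpr139, Slc44a5 and Elk1. The differences ran from 0.25 to 5.60 (median 0.68) in the higher genes and from -0.25 to -1.90 (median -0.46) in the lower ones, against a median of 0.02 over all tested genes. The 3 bicuculline libraries lay above all 3 NMP peptides plus APV libraries in 15.1% of tested genes and below them in 10.5%. All 362 called genes were without overlap, so a lack of overlap sets no called gene apart from the others. Single libraries moved the number of calls: there were 191 without bicuculline replicate 3, 200 without NMP peptides plus APV replicate 1 and 212 without NMP peptides plus APV replicate 3, and the lower calls fell to 39, 38 and 47 in these omissions and to 63 without bicuculline replicate 2. Called under every one of the 6 omissions were 161 genes, 128 higher and 33 lower.

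**Figure D1:**
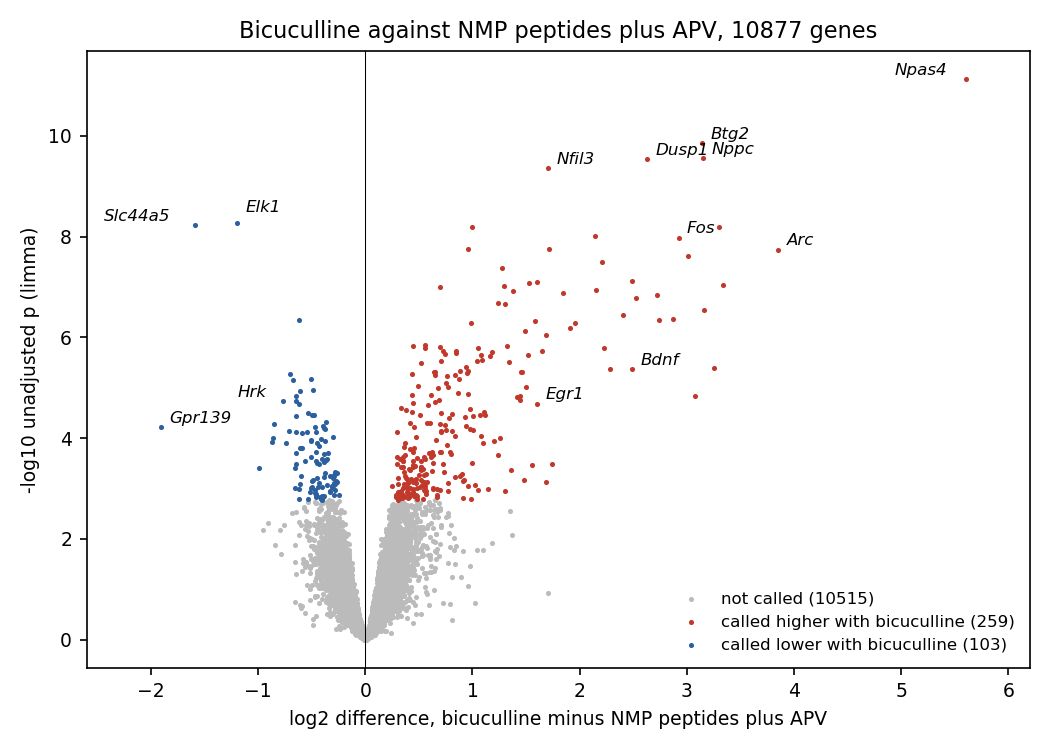
Each point is 1 of 10877 tested genes, with the log2 difference, bicuculline minus NMP peptides plus APV, on the horizontal axis and −log10 of the unadjusted limma p on the vertical axis. Red marks the 259 genes called higher with bicuculline and blue the 103 called lower; Npas4 stands alone at 5.60, and the lower side ends at Gpr139 with -1.90.

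On the first principal component of all libraries, which held 31.2% of the variance, the bicuculline libraries lay at 6.5 to 18.7 and the NMP peptides plus APV libraries at -18.5 to -7.6. The second held 19.2%, with bicuculline at 6.9, -10.4 and 9.6 and NMP peptides plus APV at 4.9 to 6.8. The 4 libraries highest in the astrocyte gene Gfap were bicuculline replicate 2, DMSO replicate 2, NMP peptides replicate 3 and PK-cleaved NMP peptides replicate 3. They lay at -14.6 to -10.0 on this second component. Neuronal markers were well expressed in both groups, with Slc17a7 (the vesicular glutamate transporter of excitatory neurons) at a mean log2 signal of 6.27 and Gad1 (which makes GABA) at 5.52 over the 6 libraries. The cultures also held glia. Antilogged and summed, 12 astrocyte markers gave 1378 to 1500 with bicuculline and 1516 to 1561 with NMP peptides plus APV, with no overlap. Of the 12, 0 were called, and 6 were lower at an unadjusted p under 0.05, beside 2029 of 10877 tested genes in either direction. The 11 inhibitory neuron markers summed to 570.3 to 596.4 with bicuculline and 487.3 to 505.1 with NMP peptides plus APV, again with no overlap. Such sums weigh the strongest genes most, here Sst (mean log2 signal 8.21) and Npy (6.47), and Fabp7 (9.67) for astrocytes. Singly, 5 of the 11 inhibitory markers lay wholly above with bicuculline and 0 wholly below. Of the 12 astrocyte markers 5 lay wholly below and 1 wholly above. Over all tested genes, 15.1% lay wholly above and 10.5% wholly below. Sums of the 11 excitatory markers overlapped, at 229.7 to 263.7 and 231.7 to 258.9. So did those of 11 oligodendrocyte lineage markers, at 133.4 to 152.9 and 152.3 to 187.0. Of the oligodendrocyte lineage markers, Mag and Mog did not pass the filter on low values. Sums of 10 microglia markers were 1.38 to 1.92 and 1.20 to 1.61, and those of 10 endothelial and mural markers 2.88 to 4.51 and 2.59 to 3.81. None of the microglia markers and only Acta2 of the endothelial and mural markers passed the filter on low values. In bulk RNA, fewer cells of a type and less RNA per cell cannot be told apart, and the part of cell composition in the differences below was not tested.

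Immediate-early transcription factors were higher with bicuculline almost throughout. Of 28 listed genes 25 were tested, 21 were called higher and 0 lower (limma; 23 and 0 at an unadjusted p under 0.05), beside 2.38% of all tested genes called higher. Their median log2 difference was 1.71 against 0.02 over all tested genes. Without any 1 of the 6 libraries, 21 to 22 were called. The 4 tested genes that were not called were Crem (0.45), Srf (0.36), Klf10 (0.15) and Myc (0.15).

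Npas4 encodes a bHLH-PAS factor that neurons make in response to calcium entry (chromosome 19, 4984353 to 5003439). Its log2 signal was 5.73, 5.12 and 6.08 in the bicuculline libraries and -0.07, 0.11 and 0.08 in the NMP peptides plus APV libraries, or 5.64 ± 0.49 and 0.04 ± 0.10 (SD, n = 3 each). The difference was 5.60 (SE 0.27, adjusted p = 8.06e-08 by limma), or 48.6-fold. The means of the other groups lay between them, with DMSO at 0.81 and 1.81, PK-cleaved NMP peptides at a mean of 0.93 and NMP peptides at a mean of 3.39. NMP peptides plus APV was lower than DMSO by 1.27, which missed the threshold (adjusted p = 0.092 by limma).

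Fos, an AP-1 subunit (chromosome 12, 85473890 to 85477274), stood at 7.80, 7.28 and 8.02 with bicuculline and at 4.88, 5.01 and 4.46 with NMP peptides plus APV. The lowest bicuculline library was thus more than 2 log2 units above the highest of the other group. The difference was 2.92 (SE 0.25, adjusted p = 1.04e-05 by limma), or 7.59-fold. Its AP-1 partners followed, with Fosb higher by 3.16 (8.95-fold) and Junb, at 7.61, 6.84 and 7.96 against 4.96, 4.75 and 4.54, higher by 2.72 (6.59-fold). Jun and Jund differed less, by 1.04 and 0.95. For Fos, Fosb and Junb the NMP peptides plus APV means (4.78, 3.07 and 4.75) lay above both DMSO libraries, which for Fos were 4.03 and 4.61.

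All 4 Egr zinc finger factors were called higher, with Egr4 furthest apart. Egr4 gave 6.43, 5.58 and 6.96 with bicuculline and 3.05, 3.16 and 2.73 with NMP peptides plus APV, a difference of 3.34 (SE 0.33, adjusted p = 4.65e-05 by limma). Egr2 was higher by 2.22 and Egr3 by 1.41. Egr1, long used as a marker of neuronal activity, was high in both groups, at 7.79, 7.18 and 7.38 against 5.94, 5.92 and 5.67. That was a 3.04-fold difference (1.61, SE 0.26, adjusted p = 0.00218 by limma) without overlap, and the DMSO libraries lay lower still at 4.75 and 5.48.

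The Nr4a orphan nuclear receptors were higher by 2.53 (Nr4a1), 2.49 (Nr4a2) and 1.68 (Nr4a3). Nr4a1 had 6.17, 5.71 and 6.15 against 3.40, 3.76 and 3.28 (adjusted p = 6.56e-05 by limma). Klf4, a Krüppel-like factor, rose out of the low range, from 0.34, 0.71 and -0.13 with NMP peptides plus APV to 3.39, 2.76 and 3.80 with bicuculline, or 8.07-fold. Atf3, a stress and activity responsive bZIP factor, differed by 3.08 (SE 0.48, adjusted p = 0.00167 by limma) with more scatter, since its NMP peptides plus APV libraries ran from -0.32 to 1.52. Nfil3, a bZIP repressor linked to the clock, had 4.12, 4.21 and 4.53 against 2.61, 2.66 and 2.46, closely spaced within each group (adjusted p = 9.52e-07 by limma).

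**Figure D2:**
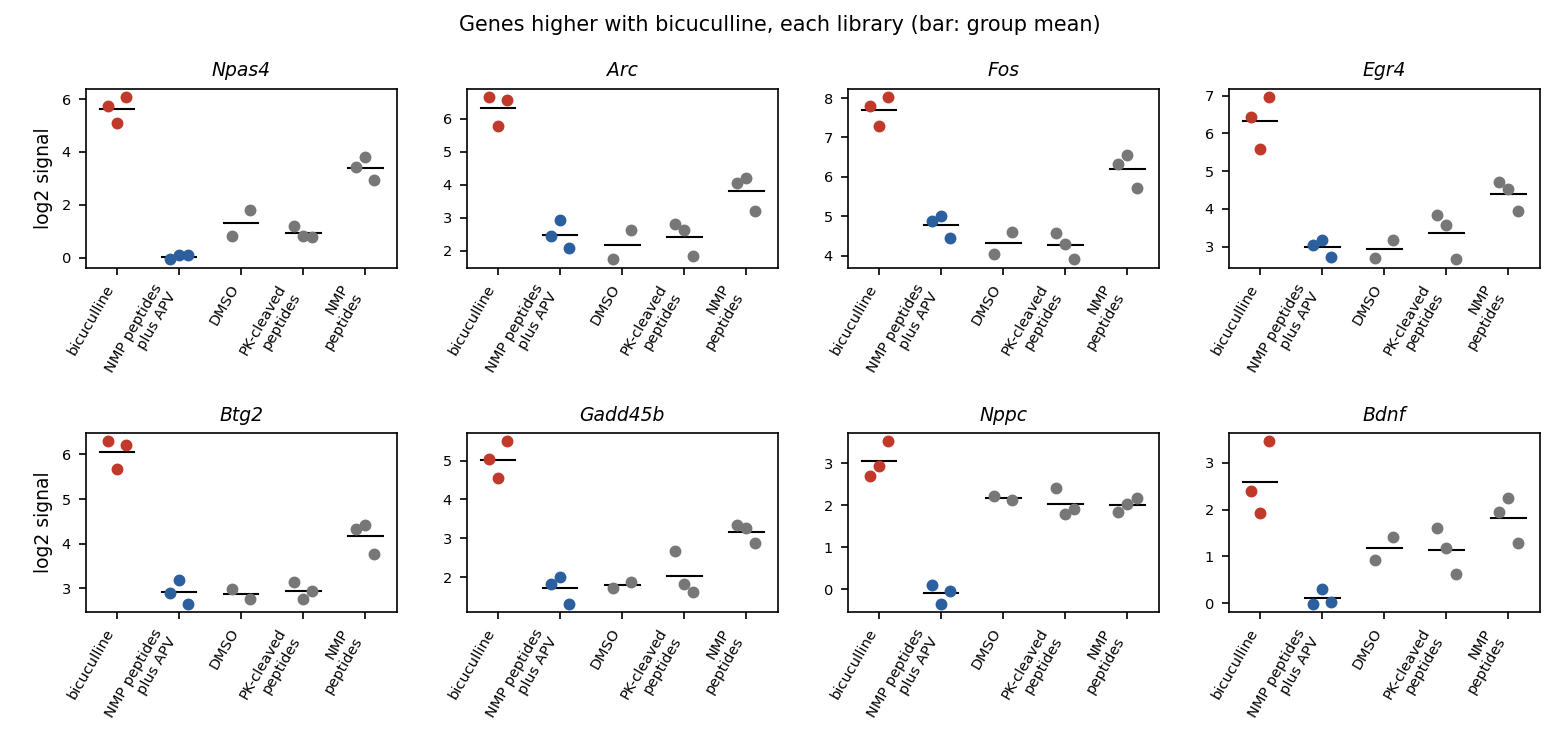
Log2 signal (vertical axis, a separate scale in each panel) of Npas4, Arc, Fos, Egr4, Btg2, Gadd45b, Nppc and Bdnf in each library of the 5 groups, with a bar at the group mean. Red points are bicuculline and blue points NMP peptides plus APV; the 2 colours overlap in none of the 8 panels, and in Nppc the DMSO libraries (2.22 and 2.14) lie nearer to bicuculline than to NMP peptides plus APV.

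Activity-regulated effector genes were higher with bicuculline in most cases. Of 37 listed genes 33 were tested, 23 were called higher (18 to 22 without any 1 of the 6 libraries) and 0 lower, with a median difference of 1.00. At an unadjusted p under 0.05 limma gave 28 higher and 1 lower, Ppp1r10 (-0.18), a phosphatase regulator. Arc, a synaptic protein that promotes removal of AMPA receptors (chromosome 15, 74669081 to 74672570), gave 6.65, 5.78 and 6.57 against 2.43, 2.94 and 2.07. It was 14.5-fold higher (log2 difference 3.85, SE 0.34, adjusted p = 1.41e-05 by limma), and the NMP peptides plus APV libraries overlapped the range of DMSO (1.74 and 2.63).

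Gadd45b, which acts in stress signalling and DNA demethylation, had 5.03, 4.54 and 5.49 with bicuculline and 1.84, 2.01 and 1.33 with NMP peptides plus APV, or 9.84-fold. Gadd45g was 7.3-fold higher, and Gadd45a was higher by 0.92 on the log2 scale, a call lost whichever of the 6 libraries was left out (adjusted p up to 0.134, without bicuculline replicate 3, limma). Btg2, an antiproliferative factor that recruits the deadenylase complex, had 6.29, 5.68 and 6.22 against 2.90, 3.20 and 2.66, a difference of 3.14 (SE 0.19, adjusted p = 7.65e-07 by limma). Btg1 differed by 0.50 and was not called.

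Rgs2 and Rgs4 both shorten signalling by G-protein-coupled receptors. Rgs2 had 5.52, 5.11 and 6.01 against 3.31, 3.53 and 3.37 (4.41-fold), and Rgs4 had 7.23, 6.63 and 7.59 against 5.26, 5.37 and 5.28 (3.59-fold). In both genes the DMSO libraries lay between the groups. Rgs17, of the same family and outside the lists, was called lower, at 3.50, 3.19 and 3.27 with bicuculline and 3.86, 3.76 and 3.88 with NMP peptides plus APV (log2 difference -0.51, adjusted p = 0.0075 by limma); it was named after its values were seen. The small GTPase Arl4d was 4.62-fold higher (adjusted p = 2.21e-05 by limma). Cyr61, a matricellular protein, was 6.68-fold higher, with 6.46, 5.47 and 5.64 against 3.33, 3.46 and 2.56. Homer1, which encodes a postsynaptic scaffold with an activity-induced short form, differed by 0.20 (adjusted p = 0.353 by limma) in this gene-level table. Ccno, a cyclin-family gene on no list, was 9.57-fold higher, with 3.53, 2.58 and 4.20 against 0.52, 0.46 and -0.45.

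Secreted messengers split into a few large differences and many small ones. Of 25 listed genes 19 were tested, 5 were called higher, also whichever of the 6 libraries was left out, and 0 lower, and the list's median difference was 0.26. At an unadjusted p under 0.05 limma gave 7 higher and 0 lower. The 5 were Nppc, Bdnf, Vgf, Adcyap1 and Scg2. Penk (0.79), Vip (0.52) and Cck (-0.59) were not called.

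Nppc, the precursor of C-type natriuretic peptide, gave 2.71, 2.93 and 3.52 with bicuculline and 0.11, -0.35 and -0.05 with NMP peptides plus APV. That was 8.87-fold (log2 difference 3.15, SE 0.20, adjusted p = 7.93e-07 by limma). The DMSO libraries had 2.22 and 2.14, and the means were 2.04 with PK-cleaved NMP peptides and 2.01 with NMP peptides. Against DMSO, bicuculline was higher by 0.87 (adjusted p = 0.24 by limma), while NMP peptides plus APV was lower by 2.28 (adjusted p = 0.00031 by limma). These side comparisons share libraries with the main one.

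Bdnf, a neurotrophin that supports synapses and survival, had 2.41, 1.93 and 3.45 against -0.01, 0.31 and 0.02, or 5.61-fold (adjusted p = 0.000696 by limma). Its DMSO libraries lay between the groups, at 0.93 and 1.42, and neither group differed from DMSO past the threshold (adjusted p = 0.31 and 0.3 by limma). Vgf, a granin-family precursor, showed the same order, with means of 5.73 ± 0.63 for bicuculline, 4.70 for DMSO and 3.45 ± 0.23 for NMP peptides plus APV (SD, n = 3 for the compared groups). Adcyap1, the PACAP precursor, was 2.71-fold higher, with 1.69, 1.37 and 2.10 against 0.08, 0.44 and 0.31. Scg2, a granin of dense-core vesicles, was 2.1-fold higher.

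Feedback inhibitors of MAP kinases were higher where called. All 18 listed genes were tested, 7 were called higher (5 to 6 without any 1 of the 6 libraries) and 0 lower (limma; 11 and 0 at an unadjusted p under 0.05), with a median difference of 0.33. Dusp1, a nuclear phosphatase of p38, JNK and ERK, had 5.90, 5.35 and 5.82 against 3.22, 3.09 and 2.86, or 6.2-fold (adjusted p = 7.93e-07 by limma). Its NMP peptides plus APV mean of 3.06 lay between the DMSO libraries, 3.05 and 3.14.

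Dusp5 and Dusp6, phosphatases of ERK in the nucleus and the cytoplasm, were 3.89-fold and 2.82-fold higher. Dusp5 gave 3.04, 2.46 and 2.80 against 0.75, 1.11 and 0.55, and Dusp6 gave 5.80, 5.22 and 5.48 against 4.04, 4.13 and 3.84. Errfi1, an inhibitor of the EGF receptor, was 2.45-fold higher with 3.61, 3.51 and 4.13 against 2.46, 2.43 and 2.46. Dusp4 was 2.27-fold higher. Dusp14 (1.05) lost its call in 5 of the 6 omissions of a library and Spry2 (0.41) in all 6, up to adjusted p = 0.157 for Dusp14 without NMP peptides plus APV replicate 1 and 0.168 for Spry2 without NMP peptides plus APV replicate 3 (limma). The other 11 tested members were not called, Spry4 (0.56) and Spred3 (0.54) being the highest of them.

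Of 34 tested calcium and CREB signalling genes only Hdac5 was called, beside 3.33% of all tested genes, and their median difference was -0.06. At an unadjusted p under 0.05 limma gave 4 higher and 10 lower, and in 10 the bicuculline libraries lay below all NMP peptides plus APV libraries, beside 10.5% of all tested genes. Camk2a (-0.48) and Mef2c (-0.42), a calcium-dependent kinase and an activity-regulated transcription factor, had the most negative differences and were not called. Hdac5, a class IIa histone deacetylase that leaves the nucleus on calcium signalling, had 4.37, 4.46 and 4.55 with bicuculline and 4.01, 4.03 and 4.03 with NMP peptides plus APV (1.35-fold, adjusted p = 0.00298 by limma). The DMSO libraries, at 4.47 and 4.43, lay with bicuculline.

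Subunit genes of the glutamate and GABA-A receptors held 0 calls (limma). At an unadjusted p under 0.05 there were 1 of 4 tested NMDA receptor subunits, 1 of 9 AMPA and kainate receptor subunits and 4 of 12 GABA-A receptor subunits. Over all tested genes the count was 2029 of 10877. Among the NMDA receptor subunits (median -0.05), Grin2b had the smallest p. It gave 4.66, 3.74 and 4.09 against 5.01, 5.65 and 4.68, lower by 0.95 (SE 0.30, adjusted p = 0.108 by limma), and the groups stayed apart only narrowly, with NMP peptides plus APV replicate 3 just above bicuculline replicate 1. In the AMPA and kainate list (median -0.10) Gria1 came closest, at -0.33 (adjusted p = 0.157 by limma). The median of the GABA-A list was -0.05. Among 24 postsynaptic scaffold genes (median -0.07), only Nlgn3, a postsynaptic adhesion protein, was called, lower by 0.46 (adjusted p = 0.0413 by limma), and it lost the call whichever of the 6 libraries was left out, up to adjusted p = 0.175 without bicuculline replicate 3.

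Of 34 tested voltage-gated channel genes 3 were called, all higher: Kcnf1 (1.09), Kcng1 (0.70) and Kcnv1 (0.65), against a list median of -0.02. All 3 encode potassium channel subunits that form no channel alone and modify Kv2 channels. Kcns2, a further subunit of that kind on the list, differed by 0.07 and was not called. Kcng1 gave 2.91, 2.88 and 2.81 with bicuculline and 2.23, 2.19 and 2.08 with NMP peptides plus APV, and Kcnv1 gave 1.68, 1.62 and 1.69 against 0.97, 0.97 and 1.09. In both the DMSO libraries stood with bicuculline (2.86 and 2.91 for Kcng1, 1.67 and 1.92 for Kcnv1). NMP peptides plus APV was lower than DMSO by 0.72 for Kcng1 and by 0.79 for Kcnv1 (adjusted p = 0.0041 and 0.0061 by limma). For Kcnf1 the DMSO libraries lay between the groups, at 4.01 and 4.20.

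Integrated stress response genes all had differences above 0, with a median of 0.44 over 20 tested genes. Only 3 were called, all higher (limma, 2 to 5 without any 1 of the 6 libraries), beside 2.38% of all tested genes. At an unadjusted p under 0.05 limma gave 14 of the 20, beside 2029 of all 10877 tested genes. Cebpb, a bZIP factor, was 2.73-fold higher with 2.75, 3.12 and 3.48 against 1.75, 1.77 and 1.48. Atf4, the central factor of the response, was 1.97-fold higher with 7.52, 7.72 and 7.77 against 6.73, 7.04 and 6.30. Chac1, a glutathione-degrading enzyme downstream of Atf4, was 2.8-fold higher (adjusted p = 0.0287 by limma, lost in 4 of the 6 omissions, up to 0.115 without NMP peptides plus APV replicate 3). DMSO reached 7.61 and 7.07 for Atf4 and 4.65 and 3.28 for Chac1. For Atf4, 1 DMSO library lay within the bicuculline range and the other just above the highest NMP peptides plus APV library. Trib3 (1.37) and Ddit3 (0.98) were not called. These counts cover the listed genes only. Outside the list, the stress-linked gene Ppp1r15a was called higher and kept its call in all 6 omissions (log2 difference 1.01 to 1.51 across them). Mthfd2, also outside it, was called higher and lost its call in 5 of the 6. Both were named after their values were seen.

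Of 12 heat shock chaperones (median 0.08) only Dnajb1, an HSP40 co-chaperone, was called, 1.84-fold higher with 5.08, 4.54 and 5.04 against 4.03, 4.03 and 3.98. The 16 sterol synthesis genes (median 0.04) held 0 calls, with 3 at an unadjusted p under 0.05 (limma), and the 5 alpha-arrestins (median 0.13) held 0, with 2. A list of 33 proteasome subunits with Gpm6a and Gpm6b, the membrane glycoproteins that bind the membrane proteasome, held 0 as well, with 3 (median 0.08). That unadjusted threshold was passed by 2029 of all 10877 tested genes.

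Clock genes and cell-death genes went both ways. Of 16 tested clock and clock output genes, Per1 (0.93) and Cry2 (0.30) were called higher, and Tef (-0.65) and Nr1d2 (-0.43) lower. Per1, a light and activity responsive repressor, had 3.81, 3.90 and 4.46 against 2.95, 3.11 and 3.31. Tef, a PAR bZIP factor, had 4.52, 4.29 and 4.49 against 5.07, 5.02 and 5.14. Cry2 and Nr1d2 each lost the call in 5 of the 6 omissions of a library, up to adjusted p = 0.196 for Cry2 without bicuculline replicate 3 and 0.119 for Nr1d2 without bicuculline replicate 2 (limma).

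Of 20 tested survival and death genes, Cdkn1a, the p21 cell cycle inhibitor (0.65), and Mcl1, an anti-apoptotic protein (0.30), were called higher. Mcl1 lost its call in 5 of the 6 omissions of a library, up to adjusted p = 0.0998 without bicuculline replicate 3 (limma). Hrk, a pro-apoptotic BH3-only protein made in neurons, was called lower. It gave 4.48, 4.61 and 4.52 with bicuculline and 5.32, 5.43 and 5.16 with NMP peptides plus APV (1.7-fold, adjusted p = 0.00203 by limma), and the DMSO libraries had 4.72 and 4.12. NMP peptides plus APV was above DMSO by 0.88 (adjusted p = 0.0074 by limma), while bicuculline and DMSO differed by 0.12.

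**Figure D3:**
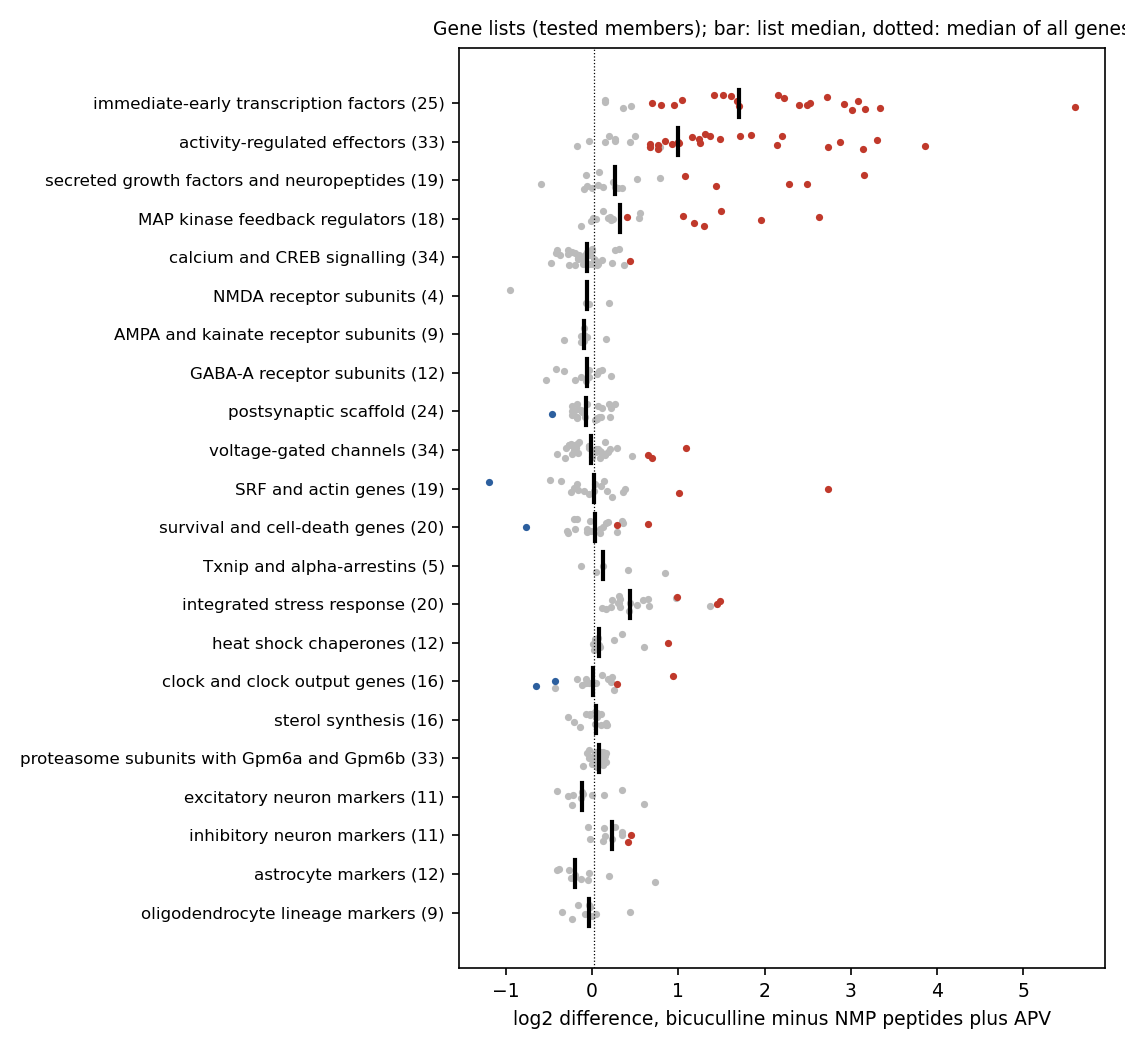
Each point is a tested gene of a list, placed by its log2 difference, bicuculline minus NMP peptides plus APV; red is called higher, blue called lower and grey not called, and numbers in brackets count tested genes. Black bars are list medians and the dotted line is the median of all tested genes, 0.02; the medians of immediate-early transcription factors (1.71) and effectors (1.00) lie furthest from it.

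The called lower genes were fewer, and their median difference was smaller in size. Gpr139, an orphan G-protein-coupled receptor of the brain (chromosome 7, 119140747 to 119184538), gave 0.14, 0.30 and -0.48 with bicuculline and 2.08, 1.85 and 1.74 with NMP peptides plus APV, 3.74-fold lower (adjusted p = 0.00493 by limma). Slc44a5, a choline transporter-like protein, gave 1.75, 1.69 and 1.42 against 3.30, 3.08 and 3.24, 3-fold lower (log2 difference -1.59, SE 0.13, adjusted p = 7.85e-06 by limma). In both genes the 3 NMP peptides plus APV libraries stood above every one of the other 11 libraries.

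Elk1, an ETS factor that joins SRF at CArG boxes and is switched on by ERK, had 3.32, 3.42 and 3.16 against 4.48, 4.42 and 4.59, 2.29-fold lower (SE 0.10, adjusted p = 7.85e-06 by limma). Of the 19 tested SRF and actin genes it was the 1 called lower, while Cyr61 and Ctgf were called higher and the median was 0.03. The other ternary complex factors Elk3 (-0.16) and Elk4 (-0.36) were not called. DMSO lay at 3.45 and 3.39, with bicuculline, and NMP peptides plus APV was above DMSO by 1.08 for Elk1 and by 1.39 for Slc44a5 (adjusted p = 0.00031 and 0.00034 by limma).

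Further genes among the 12 lowest were the ion exchangers Slc24a4 (-0.86) and Slc4a8 (-0.86), the relaxin-3 receptor Rxfp3 (-0.87), Kctd4 (-0.99), Otof (-0.74), Creg2 (-0.71), the AMP kinase subunit Prkab2 (-0.71) and Lmln (-0.67). Slc24a4 had 1.07, 1.11 and 1.07 against 1.99, 1.84 and 2.00, and Slc4a8 had 3.11, 2.89 and 2.76 against 3.88, 3.64 and 3.81. The 12 lowest were taken only from called genes without overlap between the groups. Calls were lost in 4 of the 6 omissions for Kctd4 (adjusted p up to 0.0916) and in 2 for Rxfp3 (up to 0.0507), both highest without NMP peptides plus APV replicate 1, and in 1 for Otof (0.0517 without NMP peptides plus APV replicate 3, limma).

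**Figure D4:**
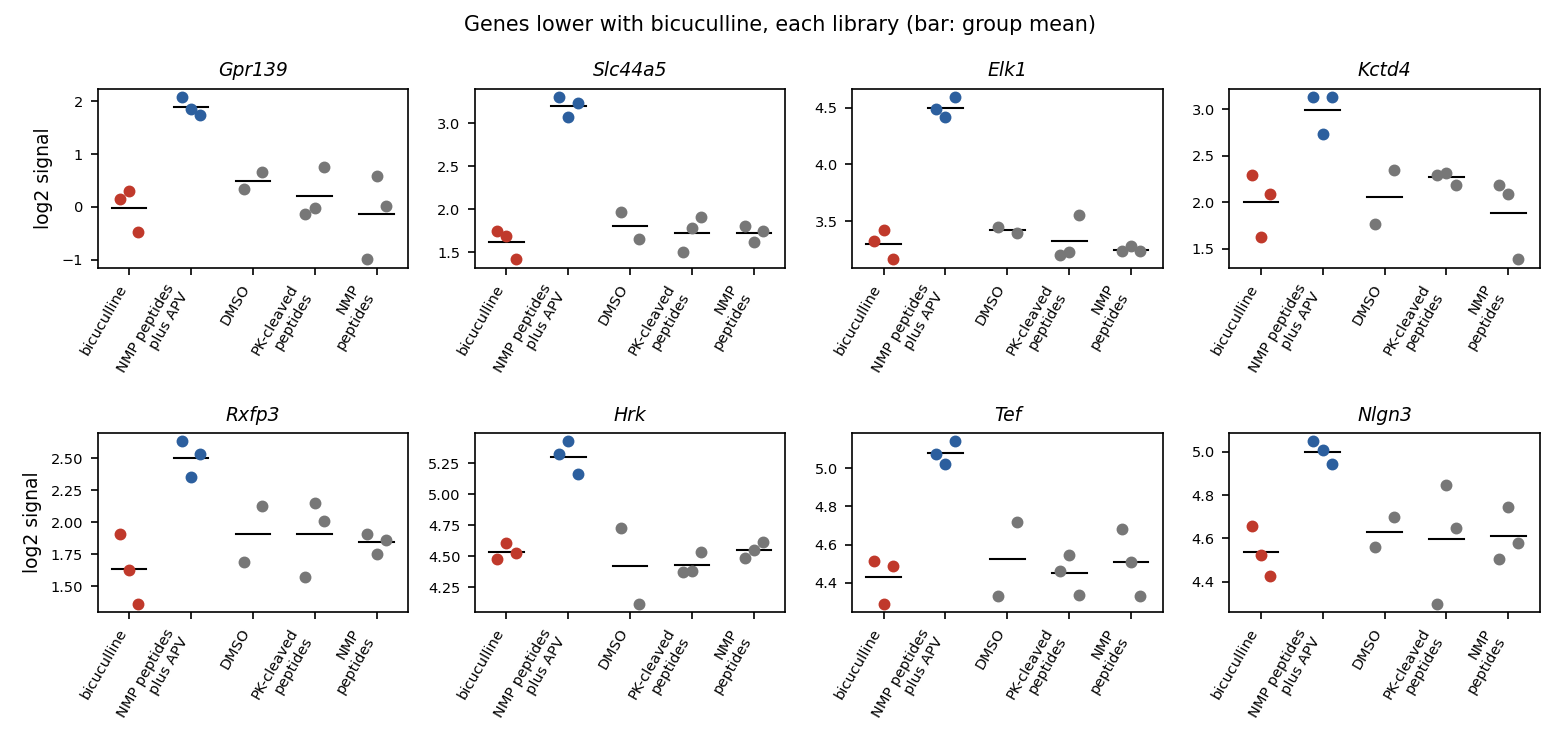
Log2 signal (vertical axis, a separate scale in each panel) of Gpr139, Slc44a5, Elk1, Kctd4, Rxfp3, Hrk, Tef and Nlgn3 in each library of the 5 groups, with a bar at the group mean. In all 8 panels the blue points, NMP peptides plus APV, lie above the red points, bicuculline, and the mean of DMSO lies nearer to bicuculline.

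Tested cell type markers were 11 excitatory, 11 inhibitory, 12 astrocyte, 9 oligodendrocyte lineage and 1 endothelial or mural. Only 2 of them were called, beside 3.33% of all tested genes. Both were inhibitory neuron markers and both were higher with bicuculline. Gad1 had 5.82, 5.54 and 5.90 against 5.31, 5.25 and 5.34 (adjusted p = 0.0449 by limma), and Dlx5, a factor of inhibitory neuron development, was higher by 0.42 (adjusted p = 0.0354 by limma). Gad1 lost its call in 5 of the 6 omissions and Dlx5 in all 6, up to adjusted p = 0.202 for Gad1 without bicuculline replicate 3 and 0.138 for Dlx5 without NMP peptides plus APV replicate 3. The median of the 11 inhibitory markers was 0.23, that of 11 excitatory markers -0.12 and that of 12 astrocyte markers -0.20. Gfap, an astrocyte filament protein, varied between bicuculline libraries (2.67, 4.18 and 3.47) more than between NMP peptides plus APV libraries (2.61, 2.76 and 2.77). Without the 4 libraries highest in Gfap, a choice made after seeing the data, 21 immediate-early factors, 22 effectors, 6 secreted messengers and 9 MAP kinase regulators were called higher, and calls over all genes were 195 higher and 41 lower.

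Back at the promoters, all 5 motifs were counted in the 250 bases before every RefSeq start, on both strands, as a description. The chromosome of Egr1 was included in these counts. The full cAMP response element stood in 17 of 275 promoters of genes called higher (6.18%, 205 of 259 genes matched) and in 0 of 89 promoters of genes called lower (68 of 103 matched), against 304 of 10905 promoters of tested genes (2.79%) and 1.55% of all 32851 promoters. Effector genes had it in 7 of 34 promoters, and immediate-early transcription factors in 1 of 25 (4%). The core TGACG, which the full element contains, stood in 38.9% of promoters of higher genes, 20.2% of lower genes and 27.4% of tested genes. It was in 17 of 25 promoters of immediate-early transcription factors and in 15 of 34 of effector genes. CArG boxes were in 9 promoters of higher genes (3.27%), which belonged to 5 of the 205 matched genes, Dusp5 among them, in 0 of lower genes and in 1.13% of promoters of tested genes (113 of 8422 genes). EGR sites (GCGGGGGCG or GCGTGGGCG) were in 8.73%, 2.25% and 6.16%, and AP-1 sites (TGANTCA) in 4%, 5.62% and 3.78%. The promoters of Nppc, Slc44a5 and Elk1 held none of the 5 in this stretch.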

How the data were processed

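Ribosome-depleted RNA from 14 cortical cultures was sequenced as paired-end reads, per the labels' protocols. The authors deposited quantile-normalised log2 signals for 45802 features, not counts. The submitters' processing notes name build GRCm38.p6. Which aligner, counter and annotation they used is not given in the sources used here. Read depth is therefore unknown, and these values cannot show a shift in total RNA. Of 18128 features with a value, the lowest 40% by mean over all libraries were dropped, leaving 10877. A limma 3.58.1 model with 1 mean per group took in all 14 libraries (R 4.3.3; variance trend, two-sided, Benjamini-Hochberg). With 3 libraries against 3, an exact permutation test cannot go below 0.1, so none was run per gene. Members and gene lists were chosen with earlier results of these data known. Named genes were 7 index genes, the largest called differences per list (up to 8 in the first 4 lists, 4 in others; the smallest p where none was called) and the 12 highest and 12 lowest called genes without overlap; other list members are given by their difference, and Nfil3, Homer1 and Gfap were named after their values were seen. The rule's choice from 1 list is not reported here. On simulated data for this comparison (10877 genes, 200 changed) 69.7%, 98.5% and 100% of differences of 0.5, 1 and 2 were recovered, with 6.77% of calls false. The simulated noise was independent between genes, without the structure that the principal components show, so these rates need not hold for the real libraries. Promoters and positions are from RefSeq.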

Additional observations from a re-analysis of the deposited data

How the results depend on the processing

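The call counts of 362 in all, 259 higher and 103 lower stayed within 1.5 times under no filter, median centring, the compared groups alone, a replicate block and no variance trend. Dropping 60% gave 231 in all and 149 higher, with fewer genes tested. Array weights gave 836, 538 and 298. Leaving out each library gave 191 to 279 in all, 152 to 202 higher and 38 to 85 lower. Leaving out the 4 libraries highest in Gfap gave 236 and 41 lower. Except where stated, the cause was not tested. A replicate block gave 290 in all, 219 higher and 71 lower. Same-numbered libraries of the 2 groups correlated at 0.232, -0.0416 and -0.101 in their deviations from the group means. Not every library correlated best with its own number. Deviations from a mean of 3 libraries are tied to each other, so these values cannot decide whether the numbers pair the libraries. Of 60 called genes named by the rule, 48 kept their call without each of the 6 libraries in turn. Of the named genes only Acta2 changed sign, from -0.27 to 0.081 under array weights and to 0.15 without the 4 Gfap libraries; it ran from -0.75 to 0.15 as each library was left out (0.15 without bicuculline replicate 2, 0.092 without NMP peptides plus APV replicate 2), and it was called in none. The alternative for several rows per gene did not apply. Read depth is unknown and no floor can be given; the median SE of a difference was 0.10, which limits what 3 libraries a group can show.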

Other observations

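Some genes outside the lists and the naming rule had bicuculline close to DMSO and NMP peptides plus APV away from both; they were chosen after their values were seen. Cav1, a caveolar membrane protein, gave 1.26, 1.90 and 1.49 with bicuculline and -0.24, 0.02 and 0.07 with NMP peptides plus APV, 3.04-fold higher (adjusted p = 4.58e-05 by limma), with DMSO at 1.56 and 1.18. Opn3, a non-visual opsin, had 1.58, 1.61 and 1.37 against 0.22, 0.46 and 0.04, with DMSO at 1.62 and 1.65. Receptor genes were among them. Avpr1a, a vasopressin receptor, was 2.6-fold higher with bicuculline (1.45, 1.14 and 1.50 against -0.05, 0.12 and -0.11), and Grm2, a presynaptic glutamate receptor, 1.8-fold higher (2.22, 2.53 and 2.33 against 1.38, 1.66 and 1.50). Prnp, the prion protein gene, went the other way, at 6.95, 6.95 and 6.93 against 7.62, 7.43 and 7.64 (1.53-fold lower, adjusted p = 0.000142 by limma), with DMSO at 7.10 and 6.97. All 5 kept their calls whichever of the 6 libraries was left out.

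Adrb1, a beta-adrenergic receptor, had 3.37, 3.19 and 3.40 with bicuculline, 1.73, 1.93 and 1.72 with NMP peptides plus APV and 2.27 and 2.21 with DMSO. Bicuculline was above DMSO by 1.08 (adjusted p = 0.0056 by limma) and NMP peptides plus APV was lower than DMSO by 0.45, which missed the threshold (adjusted p = 0.33 by limma). H2-Ab1, an MHC class II chain, was 3.34-fold higher with bicuculline (1.47, 1.69 and 1.10 against 0.09, 0.05 and -1.11, adjusted p = 0.0167 by limma). Its call was lost without NMP peptides plus APV replicate 3 (adjusted p = 0.0757 by limma), and 0 of 10 microglia markers passed the filter on low values.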
